A study of Rattus norvegicus with 5 samples.

Results

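The genes examined here encode NF-kappaB subunits (Nfkb1, Nfkb2, Rela, Relb), the inhibitors that switch NF-kappaB off again (Nfkbia, Nfkbib, Nfkbie, Tnfaip3) and the cytokine tumour necrosis factor (Tnf). They were taken by symbol from the annotation of the array's probes, and 7 of the 9 were found among 14871 named genes. Relb and Tnfaip3 were not analysed here. All 7 found genes had values on 5 arrays, and none was lost to the filter on missing values.

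The RNA came from mononuclear leukocytes washed out of the blood vessels of transplanted rat kidneys and enriched on a Percoll gradient, which was meant to deplete granulocytes and red cells. Allografts were kidneys of F344 rats (RT1lv1) placed in LEW recipients (RT1l), a combination with a minor MHC class I difference, and for isografts both donor and recipient were LEW. Recipients were nephrectomised males in both groups, donors had received heparin, recipients had received ampicillin, and none had received immunosuppression. Each of 5 dual-colour arrays set an allograft sample against an isograft sample, with the allograft in Cy5 on replicates 1, 3 and 5 and in Cy3 on replicates 2 and 4. Ratios are read as allograft over isograft, a direction that the sample titles make likely but do not state, and the names of genes depend on how the table's rows were put back in order. The sample titles call each array a biological replicate. The labels used here give neither the animals behind each replicate, nor their age, nor the day after transplantation. P-values therefore measure the spread between these 5 arrays, which may be partly technical. Because only ratios were available, the level of a gene in either group is unknown, and fewer cells of a type cannot be told apart from less RNA per cell.

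NF-kappaB is a family of transcription factors that form dimers, of which the p50 and p65 pair (Nfkb1 and Rela) is the best known. In resting leukocytes IkB proteins bind the dimers and hold them in the cytoplasm. Signals from TNF receptors, Toll-like receptors and antigen receptors lead to phosphorylation and destruction of IkB, and the freed dimers activate genes of inflammation, adhesion and survival. IkB-alpha (Nfkbia) is itself a classical target, so its messenger is remade within a feedback loop after activation. Most regulation of the subunits takes place on the proteins, which a messenger RNA array does not measure.

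The promoter windows of 3 members are shown because they hold the decameric NF-kappaB consensus (the kappaB site), the sequence through which the family acts on its own genes. They are RefSeq sequences of the GRCr8 assembly, from 250 bases before to 50 bases after the annotated start, 5′ to 3′ on the gene's strand, with the match in capitals. The consensus was taken as 3 G, 1 purine, any base, 3 pyrimidines and 2 C, and both strands were searched.

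Nfkbia: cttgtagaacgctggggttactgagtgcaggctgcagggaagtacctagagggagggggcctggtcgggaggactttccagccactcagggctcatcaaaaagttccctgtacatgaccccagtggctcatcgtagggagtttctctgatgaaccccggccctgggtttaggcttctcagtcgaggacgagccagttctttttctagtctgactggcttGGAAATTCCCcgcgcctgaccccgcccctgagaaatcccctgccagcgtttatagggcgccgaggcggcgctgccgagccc

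Nfkb2: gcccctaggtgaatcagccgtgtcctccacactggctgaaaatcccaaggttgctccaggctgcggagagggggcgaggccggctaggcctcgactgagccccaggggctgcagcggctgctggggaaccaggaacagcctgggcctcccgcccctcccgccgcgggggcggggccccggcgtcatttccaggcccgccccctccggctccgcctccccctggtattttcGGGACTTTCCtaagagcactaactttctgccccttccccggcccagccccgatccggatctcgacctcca

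Nfkb1: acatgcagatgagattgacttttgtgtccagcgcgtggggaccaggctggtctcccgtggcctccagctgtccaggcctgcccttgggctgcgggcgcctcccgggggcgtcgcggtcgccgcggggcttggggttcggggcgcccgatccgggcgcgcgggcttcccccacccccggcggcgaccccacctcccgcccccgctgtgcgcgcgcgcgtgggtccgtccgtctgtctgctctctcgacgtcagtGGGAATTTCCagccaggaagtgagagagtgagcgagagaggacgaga

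The Nfkbia window (chr6:78597023-78597322, minus strand) held its match 31 to 22 bases before the start, read on the opposite strand. The Nfkb2 window (chr1:255108124-255108423, plus strand) had a match 20 to 11 bases before the start, and the Nfkb1 window (chr2:226805413-226805712, minus strand) had one 4 to 13 bases after it. No match to these letters lay in the windows of the other 4 measured members, Rela, Nfkbib, Nfkbie and Tnf. Among all 33469 promoter windows of the table, 5.02% held at least 1 match. A match is a feature of the letters and not a measured binding site.

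Of the 7 measured members 1 rose in allograft leukocytes, Nfkbia, and none fell, by limma with Benjamini-Hochberg adjustment over 33649 rows at a threshold of 0.05. In the same fit 1.03% of 14332 named genes were higher and 0.691% were lower, and 0.746% of all rows were higher. The fitted log2 ratio, allograft over isograft, was above 0 for all 7 members, with a median of 0.52 against -0.01 over all named genes. An unadjusted p under 0.05 with a higher ratio was found for 3 of 7 members, the 3 IkB genes, and for 7.51% of named genes; another 7.51% of named genes, and no member, had one with a lower ratio. On all 5 arrays the ratio was above 0 for 5 of the 7 members (Nfkb1, Nfkbia, Nfkbib, Nfkbie and Tnf), as it was for 10.1% of named genes. The members were chosen with earlier results of these data known, so these counts describe and do not support a direction.

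**Figure D1:**
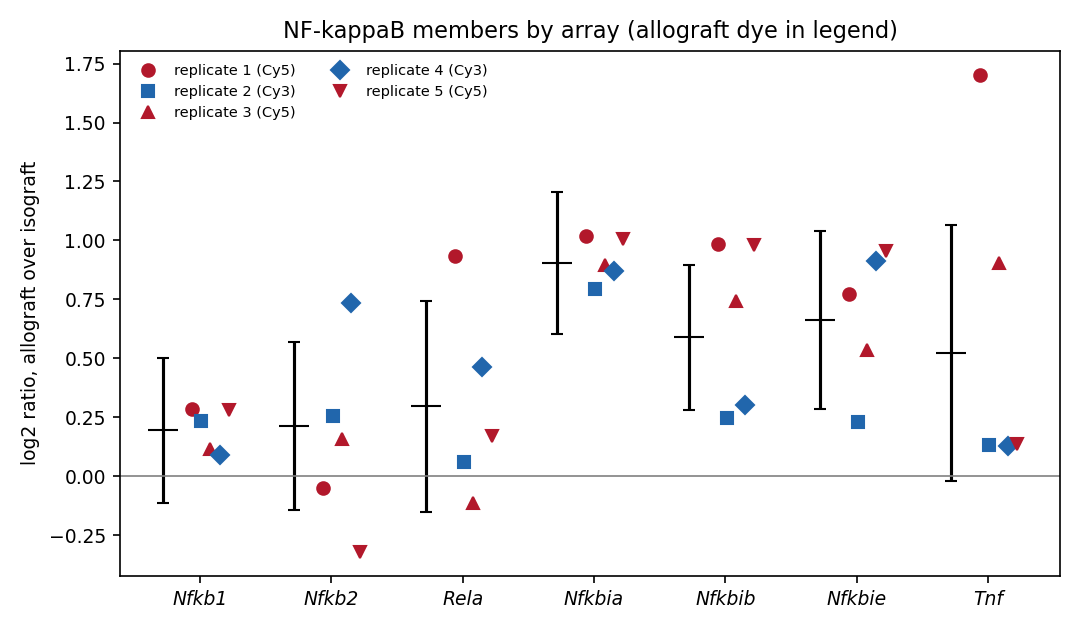
Log2 ratio of each measured member (horizontal axis) on each array (vertical axis, allograft over isograft); coloured symbols are the 5 arrays, red with the allograft in Cy5 and blue with the allograft in Cy3, and the black mark with its bar is the fitted ratio with its 95% confidence interval. The 5 Nfkbia values lie close together between 0.79 and 1.02, whereas those of Tnf run from 0.13 to 1.70. Each Nfkbia value is a mean of 2 probes, and each Tnf value comes from 1 probe.

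Nfkbia encodes IkB-alpha, the inhibitor that is destroyed and remade fastest. Its log2 ratios were 1.02, 0.79, 0.90, 0.87 and 1.00 on replicates 1 to 5. All arrays were high. Each of the 3 arrays with the allograft in Cy5 (mean 0.97) lay above both arrays with it in Cy3 (mean 0.83). The dye term was 0.07 (limma unadjusted p = 0.596). The fitted ratio was 0.90 ± 0.13 (SE, n = 5 arrays), a 1.87-fold difference with a 95% confidence interval from 1.52 to 2.30 (limma adjusted p = 0.0276). It lay above 99.0% of the named genes tested. The SD between arrays was 0.095, close to that of Nfkb1 (0.092) and below those of the other 5 members, which ran from 0.30 to 0.70. These SDs are not like for like, because Nfkbia values are means of 2 probes and Nfkbib, Nfkbie and Tnf had 1 probe each. The single Nfkbia probes ran from 0.65 to 1.37 and from 0.64 to 1.09. The size barely moved when an array was left out (0.88 to 0.92), but the call was lost each time, with adjusted p = 0.147, 0.0903, 0.0957, 0.168 and 0.140 without replicates 1 to 5.

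The call for Nfkbia rested on 2 probes. The first read 1.13, 0.75, 0.86, 0.65 and 1.37 on replicates 1 to 5, and the second 0.91, 0.83, 0.93, 1.09 and 0.64. Both were above 0.6 on every array, although they ranked replicates 4 and 5 in opposite order. On the first probe every Cy5 array lay above both Cy3 arrays. On the second the highest array was replicate 4, in Cy3, and the lowest was replicate 5, in Cy5. The mean over the 2 probes does not show this difference. Fitted singly, they gave 0.91 ± 0.15 (limma adjusted p = 0.0390) and 0.89 ± 0.14 (adjusted p = 0.0368).

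**Figure D2:**
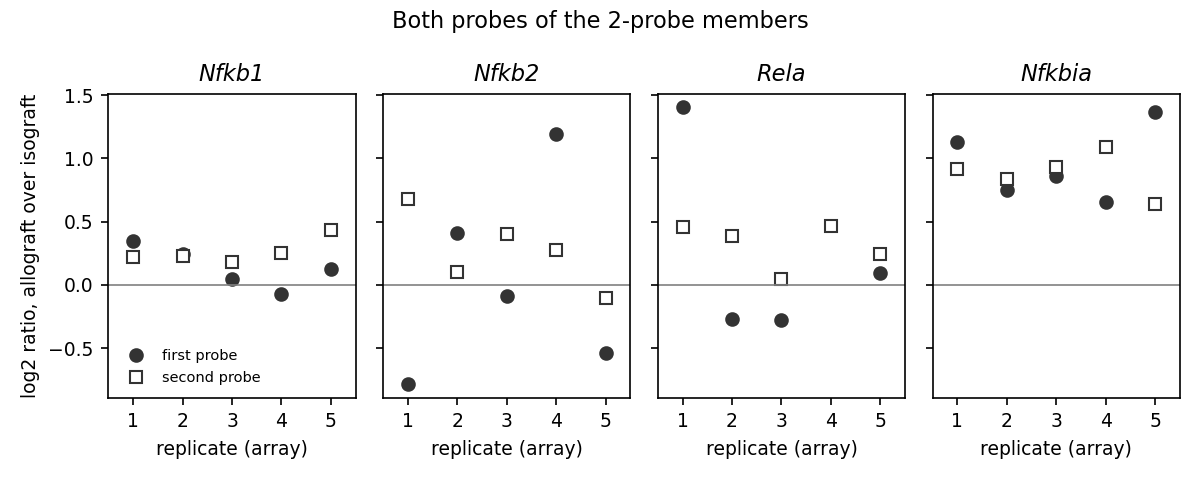
Log2 ratio (vertical axis, allograft over isograft) by array (horizontal axis) for the members with 2 probes, filled circles for one probe and open squares for the other. Both Nfkbia probes stay above 0.6 on every array, whereas the Nfkb2 probes stand at -0.78 and 0.68 on replicate 1; the first Rela probe has no value on replicate 4.

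The other IkB genes had smaller ratios that did not pass. Nfkbie encodes IkB-epsilon, an inhibitor that is also made after activation. It read 0.77, 0.23, 0.54, 0.91 and 0.95 on replicates 1 to 5, all above 0 and lowest on replicate 2. The fitted ratio was 0.66 ± 0.16, or 1.58-fold with an interval from 1.22 to 2.06, at an adjusted p = 0.115 (limma, unadjusted p = 0.00434).

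Nfkbib encodes IkB-beta, which is degraded more slowly than IkB-alpha. Its ratios were 0.98, 0.25, 0.74, 0.30 and 0.98 on replicates 1 to 5. The 3 arrays with the allograft in Cy5 (mean 0.90) were all higher than the 2 with the allograft in Cy3 (mean 0.28). The dye term was 0.31 (limma unadjusted p = 0.0476, adjusted p = 0.438). Without the dye term the graft ratio was 0.65 (adjusted p = 0.112). With it the fitted ratio was 0.59 ± 0.13, or 1.50-fold with an interval from 1.21 to 1.86 (limma adjusted p = 0.0922, unadjusted p = 0.00281). Neither Nfkbie nor Nfkbib passed under any of the 10 alternative settings run on single genes or with any array left out, with adjusted p-values from 0.0584 to 0.382 for Nfkbib and from 0.0618 to 0.510 for Nfkbie.

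The subunit genes were nearer to 0. Nfkb1 encodes p105, the precursor of p50, and read 0.28, 0.23, 0.11, 0.09 and 0.28 on replicates 1 to 5. Every array was above 0, and none reached the lowest Nfkbia value. The fitted ratio was 0.19 ± 0.13 (limma adjusted p = 0.585), and its interval, 0.93-fold to 1.41-fold, did not reach the fold fitted for Nfkbia.

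Nfkb2 encodes p100, the precursor of p52 in the non-canonical branch, and read -0.05, 0.26, 0.16, 0.73 and -0.32. Its arrays lay on both sides of 0, and the Cy3 arrays (mean 0.50) stood above the Cy5 arrays (mean -0.07). The fitted ratio was 0.21 ± 0.15 (limma adjusted p = 0.612), with an interval from 0.90-fold to 1.48-fold. It was 0.09 without replicate 4 and 0.33 without replicate 2. Its first probe ran from -0.78 to 1.19 and its second from -0.10 to 0.68, and the probes disagreed in sign on replicates 1 and 3.

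Rela encodes p65, the subunit that carries the main activation domain, and read 0.93, 0.06, -0.11, 0.46 and 0.17. Replicate 1 was the highest and replicate 3 was below 0. The fitted ratio was 0.30 ± 0.19 (limma adjusted p = 0.571), with an interval from 0.90-fold to 1.67-fold. It was 0.15 without replicate 1, 0.19 without replicate 4 and 0.41 without replicate 3. The value on replicate 1 came from 2 unlike probes, at 1.40 and 0.46. The probes disagreed in sign on replicates 2 (-0.27 and 0.39) and 3 (-0.28 and 0.05). The probe measured on all 5 arrays was above 0 on each and gave 0.34 ± 0.14 by itself (limma adjusted p = 0.359).

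The inhibitors and the subunits were set side by side on each array, as a description. Nfkbia lay above all 3 subunit genes on 5 of 5 arrays. Every one of the 3 inhibitors lay above every subunit on 2 arrays, replicates 3 and 5, and the classes overlapped on the other arrays. The difference Nfkbia minus Nfkb1 was 0.74, 0.56, 0.78, 0.78 and 0.72 on replicates 1 to 5, a mean of 0.72 ± 0.09 (SD, n = 5 arrays). Nfkbia also exceeded Nfkbib on 5 of 5 arrays, by 0.27 ± 0.27. With the allograft in Cy5 that gap was 0.04, 0.15 and 0.03 (replicates 1, 3 and 5). In Cy3 it was 0.55 and 0.57 (replicates 2 and 4), so its size differed by dye. Nfkbie lay above Nfkbia on replicate 4 (0.91 and 0.87) and below it on the other arrays. The difference Nfkbie minus Nfkbib averaged 0.03 ± 0.34 and was above 0 on 1 array. The difference Nfkb2 minus Nfkb1 averaged -0.05 ± 0.47 and was above 0 on 3 of 5 arrays. No test was run on these differences.

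Tnf encodes the cytokine that activates NF-kappaB through its receptors and is itself an NF-kappaB target in macrophages. Its single probe read 1.70, 0.13, 0.90, 0.13 and 0.13 on replicates 1 to 5. Replicates 1 and 3, both with the allograft in Cy5, were high, and the other 3 arrays, of both orientations, were nearly equal and low. The Cy5 arrays had a mean of 0.91 and the Cy3 arrays 0.13. The dye term was 0.39 (limma unadjusted p = 0.132, adjusted p = 0.535). The fitted ratio was 0.52 ± 0.23, or 1.44-fold with an interval from 0.99 to 2.09 (limma adjusted p = 0.401, unadjusted p = 0.0574). Without replicate 1 it was 0.32 (adjusted p = 0.631). The difference Nfkbia minus Tnf was -0.68 on replicate 1 and 0.87 on replicate 5, so the cytokine and the inhibitor did not keep the same order across arrays.

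Likeness to Tnf was measured as the root mean square difference over 5 arrays among 13330 other named genes. The nearest was Nos2, inducible nitric oxide synthase, at 0.26, with ratios of 2.12, 0.31, 0.94, -0.19 and 0.33 on replicates 1 to 5. The next was Htr7, a serotonin receptor, at 0.27. Neither passed the test: the fitted ratio of Nos2 was 0.60 ± 0.26 (limma adjusted p = 0.401; 0.35 without replicate 1) and that of Htr7 was 0.70 ± 0.24 (adjusted p = 0.251). The genes nearest to Nfkbia were RT1-Db1, a class II gene (distance 0.098, log2 ratio 0.91), and P2ry14, a receptor for UDP-glucose (distance 0.10, log2 ratio 0.87). Both rose (limma adjusted p = 0.0276 and 0.0312) and both lost their call without any one of the 5 arrays. These neighbours, like those of Tnf, were picked for array values close to the member's. Like ratios and calls therefore follow from the choice and add no support. The RT1-Db1 ratio was 1.22 with the median over its probes in place of the mean, and its distance from Nfkbia was measured with the mean only. RT1 genes resemble each other, and their probes can cross-hybridise.

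The wider pathway was read from lists chosen with earlier results of these data known, so their counts describe and do not support a direction. Of 88 tested genes in 5 lists, 11 rose and none fell, and the median ratio was 0.20. Among all named genes 1.03% were higher and 0.691% lower, with a median of -0.01. With any 1 array left out 2 to 5 of the 88 passed: 2, 5, 2, 3 and 3 without replicates 1 to 5.

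The other IkB-like genes gave 0 calls in 3 tested (limma, 2 at an unadjusted p under 0.05). They were Nfkbiz (0.65 ± 0.15, limma adjusted p = 0.111), which encodes a nuclear IkB protein, Bcl3 (0.56 ± 0.18, adjusted p = 0.229), a nuclear partner of p50 and p52, and Nfkbil1 (0.27 ± 0.15, adjusted p = 0.517), named for its likeness to IkB. The Nfkbil1 ratio was 0.12 without replicate 4 and 0.42 without replicate 2. Nfkbiz was near 0 on replicate 1 (0.05) and between 0.54 and 0.96 on the other arrays.

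Among kinases and adaptors upstream of NF-kappaB 1 of 23 rose, and the list median was 0.11. It was Birc3, a ubiquitin ligase of the TNF receptor complex that is also an NF-kappaB target. Birc3 read 1.45, 0.75, 1.35, 1.32 and 1.47 on replicates 1 to 5, lowest on replicate 2, and its fitted ratio was 1.23 ± 0.14 (limma adjusted p = 0.0161). It kept its call without replicate 2 (adjusted p = 0.0387) and lost it without any other array (0.0726 to 0.105). Of those that did not pass, the IKK-related kinase gene Ikbke stood at 1.00 ± 0.18 (adjusted p = 0.0574; it passed in 3 of the 10 alternative settings) and its relative Tbk1 at 0.47 ± 0.15 (adjusted p = 0.232). The core IkB kinase genes were Chuk, at 0.27, and Ikbkb, at 0.11.

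Of 10 other brakes on the pathway none passed (limma, 3 at an unadjusted p under 0.05; median 0.09). Tax1bp1, an adaptor of the A20 complex, was lowest at -0.71 ± 0.19 (limma adjusted p = 0.155), and Zc3h12a, which encodes the RNase Regnase-1, was highest at 0.52 ± 0.25 (adjusted p = 0.441). The Zc3h12a ratio was 0.11 without replicate 4 and 0.92 without replicate 2.

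Of 15 genes for the supply of TNF, its receptors and related receptors 1 rose (median 0.11). Cd40, a receptor of antigen-presenting cells that feeds both NF-kappaB branches, read 1.59, 0.85, 1.47, 1.19 and 1.17 and had a fitted ratio of 1.21 ± 0.14 (limma adjusted p = 0.0161). Its call was lost when any 1 array was left out (adjusted p from 0.0563 to 0.117). Adam17, the protease that releases TNF from the cell surface, stood at 0.77 ± 0.14 (adjusted p = 0.0517) and passed in 3 of the 10 alternative settings. Zfp36, whose protein tristetraprolin promotes decay of the Tnf messenger, stood at 0.63 ± 0.18 (adjusted p = 0.183). The TNF receptor genes were near 0, Tnfrsf1a at -0.11 and Tnfrsf1b at 0.11.

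**Figure D3:**
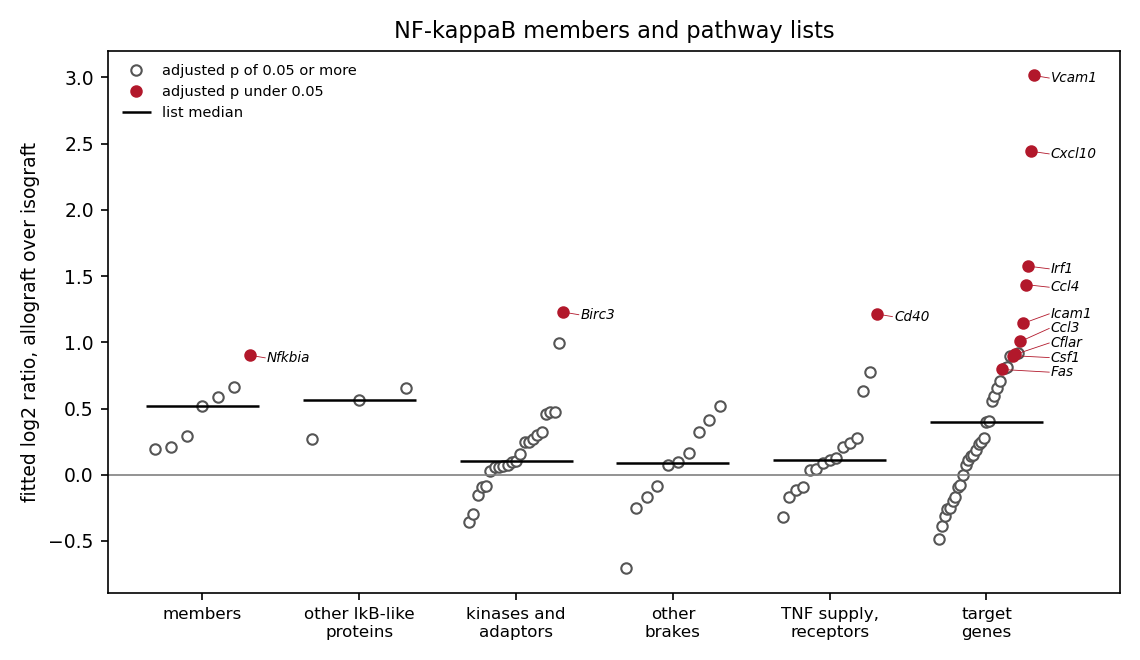
Fitted log2 ratio (vertical axis, allograft over isograft) of every tested gene in each list (horizontal axis); filled red points passed an adjusted p of 0.05, open points did not, and the bar is the list's median. The named red points of the target list run from Fas at 0.79 to Vcam1 at 3.02, and no red point lies below 0.

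Of 37 tested genes from a list of 40 textbook NF-kappaB targets 9 rose and none fell, with a median of 0.40. The adhesion molecules Vcam1 (3.02 ± 0.28, limma adjusted p = 0.00735) and Icam1 (1.14 ± 0.15, adjusted p = 0.0213) were among them. Vcam1 was 3.35, 3.83, 3.36, 2.00 and 2.64 on replicates 1 to 5, lowest on replicate 4. The chemokine genes Cxcl10 (2.44 ± 0.21), Ccl4 (1.44 ± 0.17) and Ccl3 (1.01 ± 0.17) rose with adjusted p-values of 0.00665, 0.0163 and 0.0464. The other chemokine genes of the list did not pass. Ccl2 (0.55) and Cxcl2 (0.25) were above 0, and Cxcl1 (-0.39), Ccl20 (-0.26) and Ccl5 (-0.20) were below. Irf1, a transcription factor that interferon gamma also induces, rose by 1.57 ± 0.13 (adjusted p = 0.00647). The caspase-8 inhibitor gene Cflar (0.91 ± 0.14), the macrophage growth factor gene Csf1 (0.90 ± 0.14) and the death receptor gene Fas (0.79 ± 0.14) rose with adjusted p-values of 0.0334, 0.0360 and 0.0498.

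Of these 9 target genes, Cxcl10 and Irf1 kept their call with any array left out. Vcam1 kept it in 3 of those 5 fits, not without replicate 1 (adjusted p = 0.0512) or 3 (0.0540), and Ccl4 in 1, without replicate 2 (adjusted p = 0.0369; 0.0691 to 0.105 otherwise). Icam1, Ccl3, Csf1, Cflar and Fas passed in none of the 5 (adjusted p from 0.0526 to 0.257). Il1b, the interleukin-1 beta gene (0.92 ± 0.16, adjusted p = 0.0516), and Il1rn, which encodes the interleukin-1 receptor antagonist (0.90 ± 0.16, adjusted p = 0.0578), did not pass as reported, but Il1b passed in 5 and Il1rn in 2 of the 10 alternative settings run on single genes. Of 28 target genes that did not pass, Cd86 had the lowest ratio, -0.48. Of all 37 target genes 28 were above 0, 75.7%, against 48.8% of named genes.

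Cell markers moved with the same comparison, and their part in these ratios was not tested. Of 11 monocyte and macrophage markers 2 rose (Cd14 and Aif1; median 0.26, array means from 0.06 to 0.47), and 6 had an unadjusted p under 0.05 (limma), 4 of them above 0 and 2 below. Those below were the chemokine receptor genes Ccr2, at -0.85 ± 0.18 (limma adjusted p = 0.0866), and Cx3cr1, at -0.33 ± 0.13 (adjusted p = 0.336), each below 0 on all 5 arrays. Of 9 T cell markers 1 rose (Cd3e; median 0.16, array means from -0.03 to 0.41), with 3 at an unadjusted p under 0.05, all above 0. Of 6 NK cell markers 2 rose (Nkg7 and Klrk1; median 0.36, array means from 0.14 to 0.53), whereas Ncr1, an activating receptor gene, stood at -0.61 ± 0.19 (limma adjusted p = 0.211, unadjusted p = 0.0147) and was below 0 on all 5 arrays, and Klrb1a stood at -0.11. None of 3 tested B cell markers passed (limma, 2 at an unadjusted p under 0.05; median -0.85). Platelet markers fell in 5 of 7 (median -2.23) and red cell markers in 5 of 7 (median -1.98), and both lists were below 0 on every array, with array means from -2.56 to -1.64 and from -2.59 to -1.51. None of 8 granulocyte (median -0.20), 8 endothelial (-0.02), 6 kidney epithelial (-0.12) or 5 dendritic cell markers (-0.06) passed, with 3, 2, 0 and 0 of them at an unadjusted p under 0.05. The 3 granulocyte genes went both ways, S100a8 (-0.55) and S100a9 (-0.93) below 0 and Camp (0.66) above. So did the 2 endothelial genes, Pecam1 (0.35) and Kdr (-0.36). Of all named genes 1.03% passed as higher and 0.691% as lower. An unadjusted p under 0.05 was found for 7.51% with a higher ratio and 7.51% with a lower one. Because the values are ratios, whether the defining markers of mononuclear leukocytes were present at a high level cannot be read from them.

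**Figure D4:**
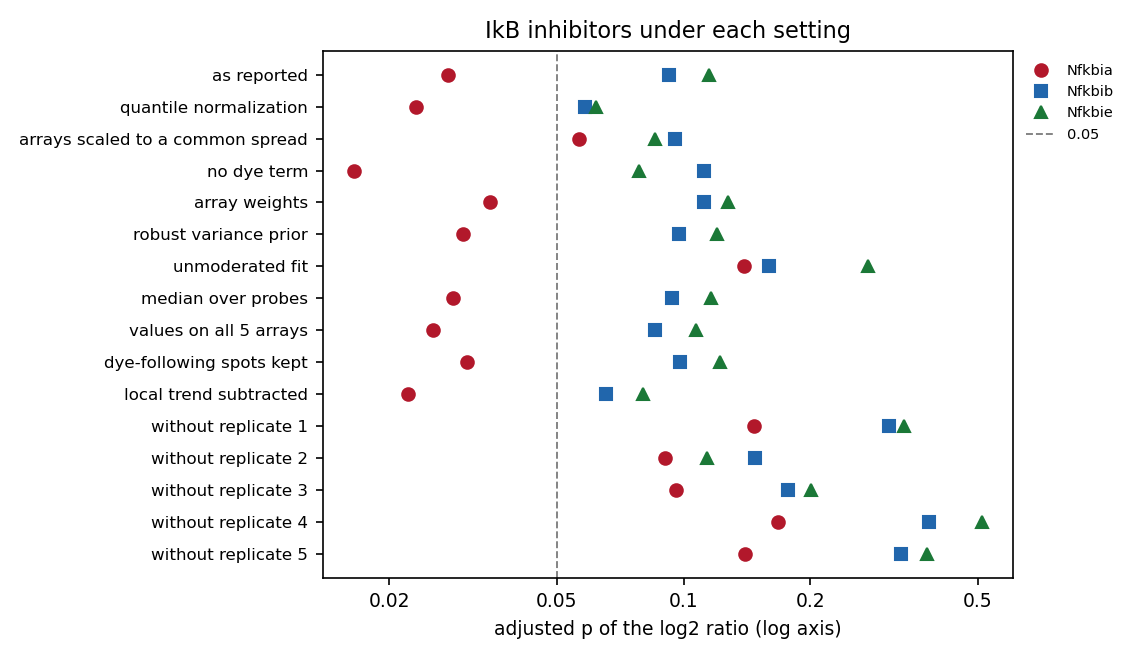
Adjusted p (horizontal log axis) of the 3 IkB genes in the fit as reported and under each alternative setting (vertical axis); the dashed line marks 0.05. Nfkbia lies left of the line as reported and in 8 of 10 alternative settings, and right of it in all 5 fits that leave out an array, and Nfkbib and Nfkbie lie right of it throughout.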

How the data were processed

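The authors deposited 1 table of log ratios, a value for each spot on each array, taken here as log2 because its values run from -5.15 to 5.25; the sources used here give no base, scanner, background correction or normalization. Array medians lay between -0.01 and 0.03. The direction, allograft over isograft, is the likely one, since sample titles name the allograft first, and replicates 2 and 4 were read as already turned. Signal over background is unknown. The number of arrays limits the precision. Values were present for 41033 to 43286 of 44290 spots.

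Row numbers did not match probe numbers (correlation 0.0017 over 5794 pairs of probes of 1 accession). In the layout order, 103 rows by 430 columns read from the opposite corner, it was 0.500 over 5797 pairs, and every gene name rests on that order. The annotation gave 1 gene for 23535 probes, several for 48 and none for 20707. Symbols were updated by Entrez number through RefSeq (GRCr8; 23488 probes matched), and probes of a gene were averaged. A further 407 spots, whose ratio followed the dye with a mean above 3, were dropped after the data had been seen; 0 of them lay on named probes.

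Rows with values on at least 4 arrays and in both dye orientations went into a two-sided limma 3.58.1 fit (R 4.3.3; lmFit, then eBayes) with graft and dye terms; the graft ratio is the mean of the means of the 2 orientations. The step was tested on simulated ratios. It recovered 23% of 100 simulated log2 changes of 1 and 81% of 100 changes of 2, and called 6 unchanged rows. A gene that did not pass is therefore not shown to be unchanged. Between arrays the correlation over named genes ran from -0.01 to 0.64. In all 446 rows differed, 251 of them higher (56.3%), against 31.2% higher of 311 with arrays scaled to a common spread. Members and lists were chosen with earlier results of these data known. Named were all members, the other IkB-like genes, pathway genes that passed, the 2 largest that did not pass in each list, and the 2 genes nearest to Tnf and to a member that passed. Chuk, Ikbkb, Tnfrsf1a, Tnfrsf1b, Cd86, the chemokine genes that did not pass and the cell markers named were added after their values were seen. Alternatives were other scalings, no dye term, array weights, other variance priors, other probe and filter rules, turned arrays, the row numbers as given, and each array left out.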

Additional observations from a re-analysis of the deposited data

Results flagged for a closer look

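Among 33 of the genes named here with values on all 5 arrays, 4 had 1 array far from the others. In these the gap to the nearest value took more of the range than the critical value of 0.71, and chance gives this in about 1 in 20 groups. None was one of the NF-kappaB subunit or inhibitor genes or Tnf. Replicate 2 was the low array for 3 of them: Birc3 (0.75, the next lowest 1.32), Cxcl10 (1.39, the next 2.62) and Il1rn (0.26, the next 1.03). Replicate 1 was the high array for Htr7 (1.93, the next highest 0.68).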

How the results depend on the processing

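All 7 measured members kept a ratio above 0 under every alternative run on single genes. The count of members that passed, 1 as reported (Nfkbia), became 0 with arrays scaled to a common spread (limma adjusted p = 0.0566). It also became 0 in the unmoderated fit (adjusted p = 0.139, with 4 members at an unadjusted p under 0.05). With any array left out it was 0 in all 5 fits, with 3 or 4 at an unadjusted p under 0.05. Replicates 2 and 4 turned again gave 0 (1 unadjusted), and the deposited row numbers used as they stood gave 0 (0 unadjusted). Turning makes the graft term the dye term of the fit as reported, and the row numbers put the members' names on other spots. Neither of these settings can therefore test the Nfkbia call. The count stayed at 1 in the other settings, among them subtraction of a local trend, which was chosen after seeing the data. Each array already holds both grafts, so the fit on ratios compares them within arrays, and no further pairing was made. The count over all rows, 446, was 733 with quantile normalization, 0 in the unmoderated fit (4477 at an unadjusted p under 0.05) and 64 to 147 with an array left out. It was 0 with replicates 2 and 4 turned (3820 unadjusted), a fit that tests the dye term. Of 88 pathway genes 11 passed as reported, 18 with quantile normalization, 0 in the unmoderated fit and 2 to 5 with an array left out; among the named ones Cd40, Vcam1, Ccl4, Cflar and Fas lost their call with scaled arrays (adjusted p from 0.0522 to 0.0793), Fas and Ccl3 with array weights, a robust prior or the dye-following spots kept (adjusted p from 0.0501 to 0.0608), and Fas also with no dye term (0.0528) or the median over probes (0.0507), so that Fas passed in 3 and Ccl3 in 6 of the 10 alternative settings. Calls were gained by Il1b in 5 of these 10 settings, by Ikbke and Adam17 in 3 each and by Il1rn in 2, and by none of them with an array left out. The cause was not tested.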
